A study of Mus musculus with 16 samples.

Results

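The vomeronasal organ (VNO) receptor genes on mouse chromosome 17 were followed as 1 set. The set held every gene of both the count and the RPKM tables whose symbol ran from *Vmn2r90* to *Vmn2r120*, was *Vmn2r124*, or ran from *Vmn1r224* to *Vmn1r238*, with pseudogene symbols left out. These were 46 of the 24340 genes in both tables, namely 15 of the 211 *Vmn1r* and 31 of the 126 *Vmn2r* genes of the count tables. The rule could match 47 symbols, and *Vmn2r119* was not analysed here. Of the 46, 45 lay on chromosome 17. The remaining member, *Vmn1r238*, lies on another chromosome, had 1 count over 16 libraries and was not tested. All 45 members on chromosome 17 were among the 16507 of 24407 genes that passed the filter on low counts.

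RNA was sequenced from the VNO of mice of 8 lines, all of the outbred Hsd:ICR background, 12 weeks old and of generation 88. The 4 High Runner (HR) lines 3, 6, 7 and 8 had been bred selectively for voluntary wheel running, and the 4 Control lines 1, 2, 4 and 5 had been kept without selection. Each line gave 1 male and 1 female library, each from the pooled VNOs of 3 mice, so that HR and Control each had 8 libraries and 4 lines. The line is the unit of selection, and its 2 libraries share their ancestry. The p-values of HR against Control over 16 libraries are therefore too small. For this reason values over lines are given beside the main ones.

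Vomeronasal sensory neurons detect pheromones and other chemical cues through receptors of several families. The *Vmn1r* receptors are made in apical neurons, which signal through the G protein subunit *Gnai2*, and the *Vmn2r* receptors in basal neurons, which signal through *Gnao1* and also make family C *Vmn2r* receptors and H2-Mv proteins. A neuron makes 1 or very few receptors of its family, so the RNA of a receptor in the whole organ depends both on how many neurons chose it and on how much RNA each makes. In bulk samples such as these, fewer neurons of a type and less RNA per neuron cannot be told apart. A ligand is known for few of these receptors, among them *Vmn2r116*, the receptor of the male tear peptide ESP1.

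The members fell into 3 blocks on GRCm38. Block A, chr17:17703747-21314912, spanned 3.611 Mb and held 36 members, 22 *Vmn2r* genes followed by *Vmn1r* genes that begin among the last of them, 14 in all. It also held 6 *Fpr* genes, which encode formyl peptide receptor-like proteins, some of them made in vomeronasal neurons. Block B, chr17:22544504-23479699, held the 7 genes *Vmn2r111* to *Vmn2r117* within 0.935 Mb. Block C, chr17:55590370-57545505, held *Vmn2r118* and *Vmn2r120*.

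Library depth, as reads assigned to genes, ran from 15998552 to 70875276 (median 37366329). The aligner accepted no mismatch and no read with more than 1 location, so a count holds only reads identical to 1 place of the reference. Reads over a base at which a line differs from the reference are lost, the base sequence of the 8 lines was not analysed here, and less RNA in a line and fewer matching reads cannot be told apart. Markers of mature vomeronasal neurons were present in every library, and between HR and Control lines *Omp*, the olfactory marker protein, had a log2 fold change of 0.05, *Gnao1* 0.07 and *Gnai2* -0.04. *Trpc2*, the transduction channel of these neurons, was listed at 0 counts in all 16 libraries although its RPKM ran from 259 to 417, so that its count is no measure of its level. Summed over its marker list, the basal neuron level was 1425 to 1821 CPM (counts scaled to library size) in Control and 1376 to 1874 in HR libraries, and the apical level 1371 to 1921 and 1394 to 1852. Gland markers ranged most, from 4403 to 30019 CPM in Control and from 1280.2 to 25659.5 in HR libraries. Immature neurons (67.8 to 89.3 and 64.7 to 92.8 CPM), main olfactory neurons (119 to 156 and 107 to 149.8), sustentacular cells (1016 to 1663 and 1238 to 1924), ciliated cells (27.9 to 87.5 and 21.2 to 71.6) and immune cells (20.7 to 26.7 and 16.9 to 29.2) had overlapping ranges. Of 5 red cell markers, 4 were listed at 0 counts in every library, as *Trpc2* was, so these zeros are not read as levels. The remaining marker, *Alas2*, averaged 5.31 CPM in Control and 5.99 in HR lines. No gene of the 10 marker lists was called between linetypes, and the part of these lists in the results was not tested.

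Per gene and per length, the *Vmn1r* members had the higher median level. On the RPKM scale, which divides reads by gene length and library size, their levels ran from 3.81 to 52.9 with a median of 24.4, against a median of 10.9 for the 143 other *Vmn1r* genes tested. The highest were *Vmn1r228* at 52.9 RPKM (41.7 to 63.3 over 16 libraries), *Vmn1r230* at 50.5 (29.3 to 70.6) and *Vmn1r226* at 35.2 (22.7 to 47.5). The library ranges of these 3 genes overlapped. The lowest were *Vmn1r225* at 15.5, *Vmn1r237* at 13.2 and *Vmn1r234* at 3.81 RPKM, and the range of *Vmn1r234* (1.54 to 5.73) lay below that of *Vmn1r225* (9.90 to 24.7). *Vmn2r* members ran from 0.280 to 41.6 RPKM with a median of 11.2, against 8.39 for the 91 other *Vmn2r* genes tested. *Vmn2r105* stood at 41.6 RPKM (31.9 to 53.4), *Vmn2r115* at 34.8 (22.5 to 48.3) and *Vmn2r93* at 34.2, the last with a range from 1.03 to 51.4. *Vmn2r91*, *Vmn2r101* and *Vmn2r103* stood at 0.572, 0.524 and 0.280 RPKM. Summed over members, RPKM was higher for *Vmn2r*, with means of 441 in Control and 496 in HR lines. For *Vmn1r* the sums were 361 and 347. Together the members made up 17.6 to 21.5% of all *Vmn2r* RPKM and 11.3 to 14.4% of all *Vmn1r* RPKM in a library.

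Beyond these averages, a number of *Vmn2r* members of block A had low counts in 1, 2 or 3 of the Control lines and high counts elsewhere. Line means were ordered for each member, and the widest gap between neighbours in that order was at least 1 on the log2 scale for 13 of the 45. All 13 were *Vmn2r* genes, 12 of them in block A. The share of all genes with such a gap was not computed. In all 13 the male and the female libraries split the lines in the same way. The gap was taken from the mean of these same libraries, so this likeness follows in part from the choice. Members with small gaps could split alike too, such as *Vmn2r90*, with a gap of 0.19.

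**Figure D1:**
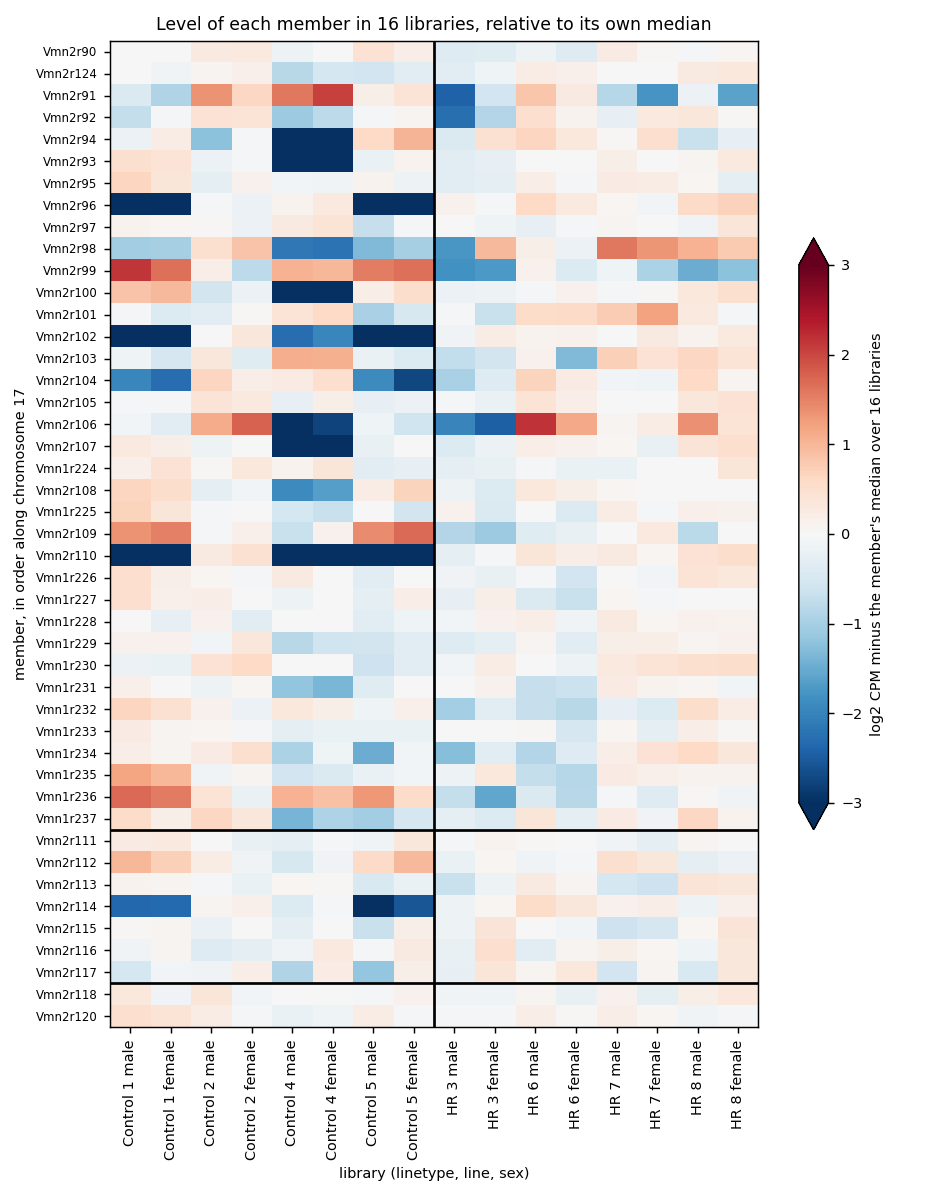
Level of the 45 members in 16 libraries, as log2 CPM minus the median of the member over the libraries, with members in chromosomal order from top to bottom and black lines between Control and HR libraries and between the 3 blocks. Colours stop at 3 in either direction, and the darkest blue cells are in Control libraries, with male and female cells of a line alike for the 13 members that split the lines.

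Control 4 alone was low for 5 members of block A. *Vmn2r93* measured 2.42 CPM in the male and 3.52 in the female library of Control 4, from 92 and 139 reads, and 69.8 to 123 CPM in the other 14 libraries. *Vmn2r100* measured 0.974 and 1.67 CPM in Control 4 and 20.2 to 58.2 elsewhere. *Vmn2r107* measured 3.03 and 5.01 CPM in Control 4 and 62.9 to 119 elsewhere. None of these ranges overlapped, and the highest line mean exceeded the lowest 40.2-fold for *Vmn2r93*, 42.5-fold for *Vmn2r100* and 28.3-fold for *Vmn2r107*. The other two, *Vmn2r94* and *Vmn2r108*, had gaps of 2.90 and 1.5 on the log2 scale. *Vmn2r94* measured 0.921 and 1.27 CPM in Control 4 and 5.54 to 26.3 elsewhere, and *Vmn2r108* measured 13.8 and 16.4 against 39.0 to 82.1. These genes were not next to each other except *Vmn2r94* and *Vmn2r93*, and genes between them, such as *Vmn2r96* and *Vmn2r102*, had other patterns.

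Control 1 and Control 5 together were low for 3 members. *Vmn2r96* measured 3.97 and 3.51 CPM in Control 1, 2.95 and 3.89 in Control 5, and 52.7 to 96.0 in the other 12 libraries. For *Vmn2r104* the 4 libraries of these lines ran from 3.76 to 6.66 CPM, against 12.8 to 39.4 in the rest. *Vmn2r114*, in block B, ran from 1.73 to 2.73 CPM there and from 10.37 to 19.9 elsewhere. Block A and block B therefore each held a member that separated the same 2 Control lines from the other 6 lines without overlap. The reverse held for *Vmn2r109*, at 4.96 to 6.38 CPM in Control 1 and Control 5 and 0.918 to 2.38 elsewhere.

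Controls 1, 4 and 5 stood against the other lines for 3 members. *Vmn2r102* measured 1.78 and 2.19 CPM in Control 1, 6.16 and 7.64 in Control 4, 2.01 and 1.91 in Control 5, and 28.0 to 37.7 in Control 2 and the HR lines. *Vmn2r110* ran from 0.921 to 3.19 CPM in these 3 lines and from 31.7 to 55.4 in the others, Control 2 included. *Vmn2r99* had the opposite order, at 37.2 to 82.6 CPM in Controls 1, 4 and 5 and 5.30 to 21.2 in Control 2 and the HR lines. In all 3 genes Control 2 lay within or at the edge of the HR range, so HR and Control lines overlapped. *Vmn2r106* was the only 1 of the 13 to split off an HR line: its 4 lowest libraries were those of Control 4, at 0.263 and 0.380 CPM, and HR 3, at 0.662 and 0.477, against 1.72 to 11.8 in the rest.

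**Figure D2:**
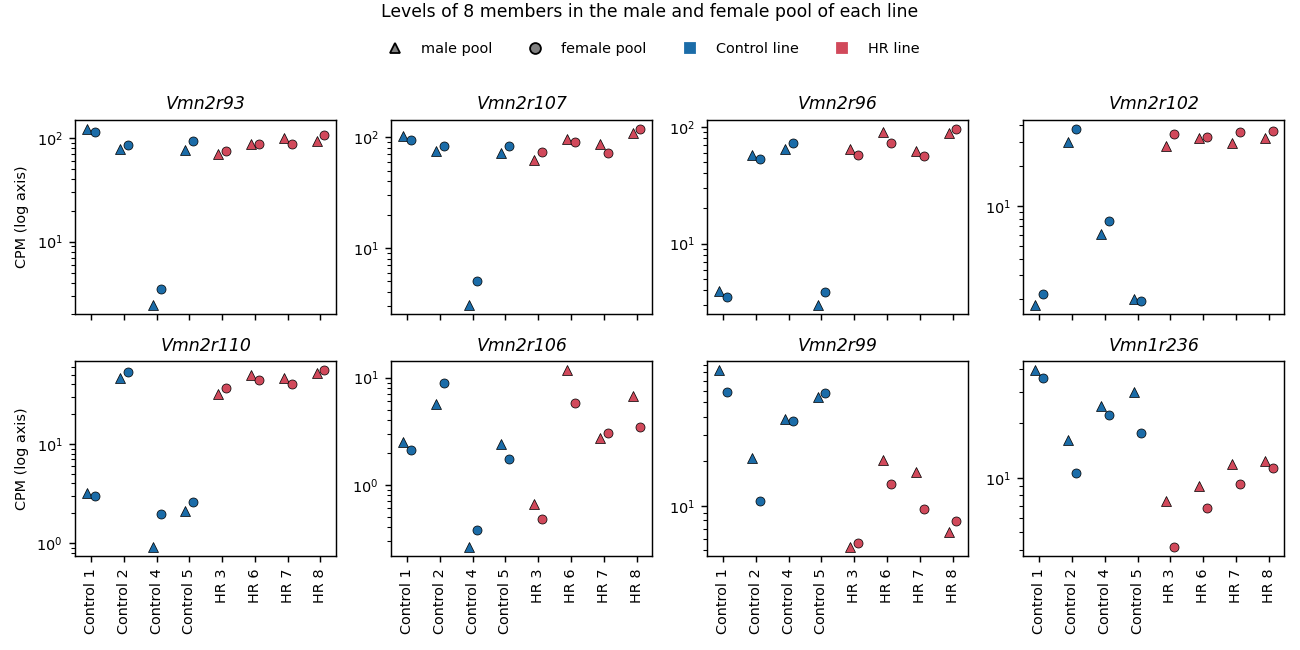
CPM of 8 members in each line, on a log axis, with triangles for the male and circles for the female pool and colour for linetype. *Vmn2r93* and *Vmn2r107* are low in Control 4, *Vmn2r96* in Controls 1 and 5, *Vmn2r102* and *Vmn2r110* in Controls 1, 4 and 5, and *Vmn2r106* in Control 4 and HR 3, whereas *Vmn2r99* and *Vmn1r236* are higher in Controls 1, 4 and 5 than in HR lines.

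Differences among the 4 Control lines were tested for every gene with edgeR's quasi-likelihood test and Benjamini-Hochberg adjustment over all genes tested, each line entering with its 2 libraries. Of the 45 members, 29 differed among Control lines (64.4%), against 19.0% of all genes and 56.9% of the 239 other vomeronasal receptors tested. The smallest edgeR adjusted p were those of *Vmn2r102* (7.25e-08), *Vmn2r96* (1.88e-07), *Vmn2r93* and *Vmn2r100* (2.98e-07 each), *Vmn2r110* (6.62e-07) and *Vmn2r107* (3.44e-06). In block A, 18 of 22 *Vmn2r* genes differed, and of the *Vmn1r* genes 8 of 14. In block B the count was 2 of 7. Leaving out Control 4 took *Vmn2r107* to an edgeR adjusted p of 0.126, and leaving out Control 2 took *Vmn2r110* to 0.0615.

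Among the 4 HR lines, 20 of the 45 members differed (44.4%), against 17.8% of all genes and 45.6% of the other receptors. Of these 20, 13 also differed among Control lines, and 9 members differed in neither. The smallest edgeR adjusted p belonged to *Vmn2r106* (0.00196), *Vmn1r235* (0.00467), *Vmn2r113* (0.00934), *Vmn1r231* (0.0108), *Vmn2r99* (0.0115) and *Vmn1r236* (0.0135). *Vmn1r235* was lowest in HR 6, at 27.7 and 25.1 CPM, against 41.0 to 56.5 in the other HR libraries. *Vmn2r113* ran from 8.94 to 18.7 CPM over the HR libraries, highest in HR 8. *Vmn2r99* was lower in HR 3 (5.30 and 5.58 CPM) and HR 8 (6.65 and 7.86) than in HR 6 (20.3 and 14), with HR 7 between (16.98 and 9.54). Each of these 6 calls was lost when 1 HR line was left out: HR 3 for *Vmn2r99* (edgeR adjusted p = 0.0702), *Vmn2r106* (0.0926) and *Vmn1r236* (0.117), HR 6 for *Vmn1r231* (0.580) and *Vmn1r235* (0.786), and HR 7 or HR 8 for *Vmn2r113* (0.0527 and 0.0536). The members called among HR lines numbered 7 without HR 3, 7 without HR 8, 10 without HR 7, 12 without Control 2 and 13 without Control 1. The matching shares of all genes are not given here, so these drops are not read as particular to the members.

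The spread over lines differed in size between the linetypes. The SD of the 4 line means, in log2 CPM, had a median over members of 0.529 in Control and 0.272 in HR lines, against 0.193 and 0.185 over all genes tested. It was larger in Control than in HR lines for 34 of 45 members (75.6%), for 52.1% of all genes and for 63.2% of the other receptors. Line means lay more than 2-fold apart for 25 members in Control and 12 in HR lines, and more than 8-fold apart for 8 and 1. Over all genes tested, 18.0% lay more than 2-fold apart in Control and 18.3% in HR lines. More than 8-fold apart were 1.29% and 1.62%. Control 4 carried part of this: without it the median SD of Control lines was 0.317, the members with the larger Control SD numbered 29, and 16 members were more than 2-fold and 3 more than 8-fold apart. Without Control 2, 5 members were more than 8-fold apart in Control lines, and without HR 3, 7 members were more than 2-fold and 0 more than 8-fold apart in HR lines. At the steady end, the highest line mean exceeded the lowest 1.29-fold for *Vmn2r118*, 1.31-fold for *Vmn1r228*, 1.33-fold for *Vmn1r233*, 1.37-fold for *Vmn2r111* and 1.42-fold for *Vmn2r116*. No test of the difference in spread was made. The larger Control SD was seen in 28 to 36 members with a line left out, in 35 members in male libraries alone and in 31 in female libraries alone. The share of all genes with a larger Control SD ran from 42.3 to 66.2% with a line left out.

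**Figure D3:**
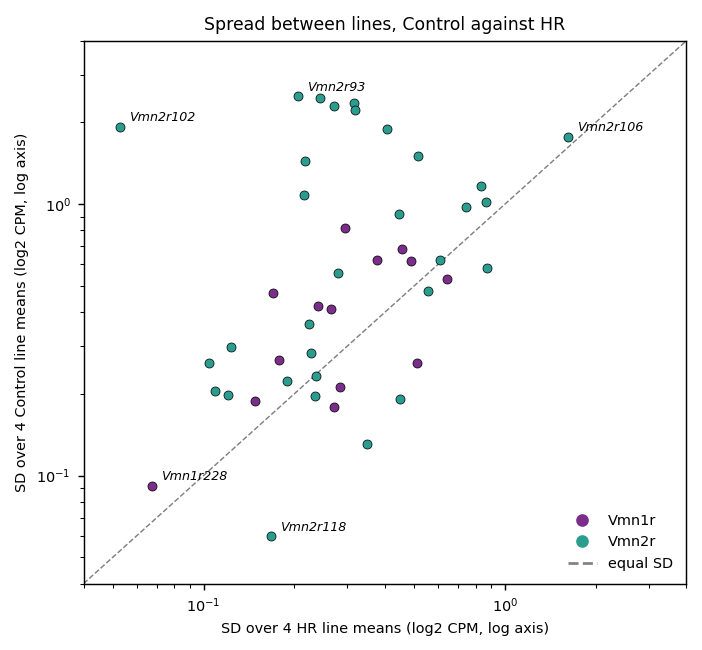
SD of the 4 line means in Control lines (vertical) against HR lines (horizontal) for each of the 45 members, in log2 CPM on log axes, with the dashed line for equal SD. Above the line lie 34 members.

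Most extreme values came from few lines. Control 1 was the highest of the 8 lines for 15 members and the lowest for 0, and HR 8 was the highest for 11 and the lowest for 0. Control 4 was the lowest line for 16 members, Control 5 for 11 and HR 3 for 10. Over all genes tested, the share of genes for which a line was highest ran from 8.12 to 18.7%, and for lowest from 8.88 to 18.8%.

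HR and Control lines were compared to ask whether the receptors of the cluster moved with selection for wheel running. No member passed the threshold over all genes tested, against 0.0242% of genes overall (4 of 16507), in the edgeR test, whose model held sex and linetype. At an unadjusted p under 0.05 there were 12 members (26.7%), 6 higher and 6 lower in HR, against 3.30% of all genes and 7.53% of the other receptors. These p count the 2 libraries of a line as independent. On line sums, edgeR's unadjusted p was under 0.05 only for *Vmn1r236* (0.00111), *Vmn2r99* (0.00226) and *Vmn2r109* (0.0258). DESeq2, also over 16 libraries, called 2 members, *Vmn1r236* and *Vmn2r99*, and gave no p for *Vmn2r102* and *Vmn2r110*. The share of all genes on line sums or by DESeq2 is not given here. The log2 fold changes of HR over Control had a median of 0.07 over the 45 members, with 28 higher and 17 lower in HR, against a median of 0.00 over all genes. Their size had a median of 0.22, against 0.07 over all genes. The line means of HR and Control did not overlap for 2 members, *Vmn1r236* and *Vmn1r228*, against 0.800% of all genes.

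**Figure D4:**
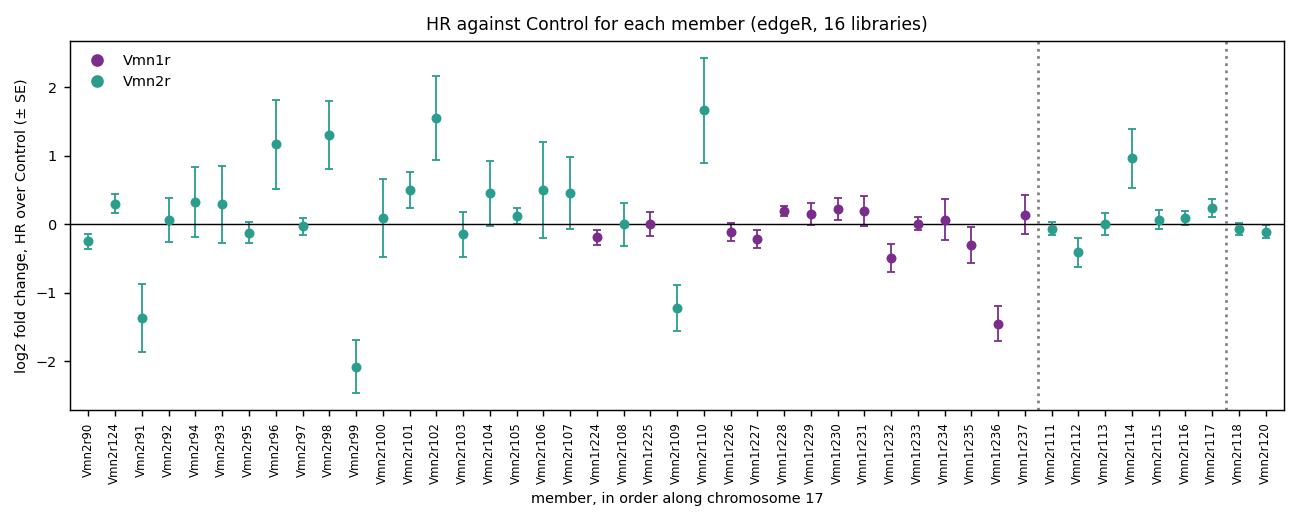
Log2 fold change of HR over Control for the 45 members in chromosomal order, with the SE of the edgeR estimate over 16 libraries as bars and dotted lines between the blocks. Values run from -2.08 for *Vmn2r99* to 1.66 for *Vmn2r110*, and members of either sign are interspersed in block A.

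*Vmn1r236*, near the far end of block A, had the smallest p of the members. It measured 39.5 and 35.8 CPM in Control 1 (male, then female), 16.2 and 10.7 in Control 2, 24.9 and 22.4 in Control 4, and 30.1 and 17.7 in Control 5. In the HR lines it measured 7.40 and 4.15 in HR 3, 8.99 and 6.82 in HR 6, 11.9 and 9.29 in HR 7, and 12.4 and 11.3 in HR 8. The line means did not overlap, though the female library of Control 2 lay below both libraries of HR 8. The log2 fold change was -1.45 ± 0.255 (SE, 8 libraries a linetype), with an edgeR adjusted p of 0.0778, and -1.65 to -1.17 with a line left out. With line sums (4 against 4) the edgeR adjusted p was 1.0, DESeq2 gave 2.43e-05, and limma-voom with line as a block gave 0.189. The exact permutation test over line means gave p = 0.0286, the smallest that 4 lines against 4 allow.

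*Vmn2r99* had the largest difference, with a log2 fold change of -2.08 ± 0.386 and an edgeR adjusted p of 0.110. The libraries of Control 2, at 21.2 and 10.8 CPM, overlapped those of HR 6 and HR 7, and the exact permutation test over line means gave p = 0.0571. Its DESeq2 adjusted p was 2.23e-05, the edgeR adjusted p on line sums 1.0, and limma-voom with line as a block gave 0.311.

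*Vmn1r236*, *Vmn2r99* and a further 6 members are on the list of receptors that the study drew from these same samples, so their direction is not independent evidence. *Vmn2r109*, which is not on that list, had a log2 fold change of -1.22 ± 0.336 and an edgeR adjusted p of 0.677, and only Controls 1 and 5 stood above the HR range. Its exact permutation p over line means was 0.114. *Vmn2r102* and *Vmn2r110* had log2 fold changes of 1.55 ± 0.616 and 1.66 ± 0.771, with an unadjusted edgeR p of 0.0231 and 0.0468. Both turned on Control 2, which had the HR level. Without it the values became 3.17 and 4.27, with edgeR adjusted p of 0.00206 and 2.24e-06. Those p leave out the 1 Control line that went against the difference, and they count 2 libraries a line. Over all line means the exact permutation p was 0.114 for each gene. With line as a block, limma-voom gave 2.66 and 3.25 on all lines. *Vmn2r96* (1.17 ± 0.651) and *Vmn2r114* (0.96 ± 0.434), which were low in Controls 1 and 5 only, had an unadjusted edgeR p of 0.0917 and 0.0412. The exact permutation p over line means was 0.114 for *Vmn2r96* and 0.0857 for *Vmn2r114*. With a line left out their values ran from 0.78 to 1.84 and from 0.66 to 1.48, and limma-voom with line as a block gave 2.34 and 1.46. *Vmn2r107* (0.46 ± 0.521) had an unadjusted edgeR p of 0.392 and an exact permutation p over line means of 0.429. Its only low line was Control 4. Its value ran from 0.07 to 0.73 with a line left out and was 1.21 by limma-voom.

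*Vmn2r98* varied within both linetypes. It measured 2.68 to 6.18 CPM in Controls 1, 4 and 5 and 17.3 and 22.3 in Control 2. HR 7 measured 36.9 and 31.05, HR 8 25.7 and 21.4, and HR 6 14.05 and 10.9 CPM. The male and the female pool of HR 3 disagreed, at 3.69 and 24.5 CPM. Its log2 fold change was 1.31 ± 0.496 and the exact permutation p over line means 0.114, and the value ran from 0.95 to 2.13 with a line left out. *Vmn2r91*, 1 of the scarcest members, had a log2 fold change of -1.37 ± 0.499 and an exact permutation p of 0.114. *Vmn1r228* was the most abundant *Vmn1r* member and differed little, at 0.20 ± 0.0702 on the log2 scale. Its libraries ran from 55.5 to 75.5 CPM in Control and from 64.6 to 83.7 in HR lines, which overlapped although the line means did not (exact permutation p = 0.0286). The remaining 3 of the 12 members with an unadjusted edgeR p under 0.05 were *Vmn2r90* (-0.25 ± 0.105 on the log2 scale), *Vmn2r124* (0.30 ± 0.138) and *Vmn1r232* (-0.49), and their line means overlapped.

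Summed over all 45 members, the levels of the linetypes differed by less than the spread over lines. The sum was 1664, 1575, 1123 and 1373 CPM in Controls 1, 2, 4 and 5 and 1360.25, 1549, 1541 and 1735 in HR 3, 6, 7 and 8. The groups overlapped, with means of 1434 ± 240.1 and 1546 ± 153 CPM (SD, n = 4 lines) and a ratio of 1.08. That ratio ran from 1.01 to 1.14 with a line left out and was 1.01 without Control 4. It was 1.12 for *Vmn2r* members and 0.954 for *Vmn1r* members. By block the ratio was 1.12 in A, 1.01 in B and 0.938 in C.

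Male and female pools were compared to see whether the sexes differed in these receptors. The main model held linetype but no term for line, so differences between lines entered its error. No member passed the threshold in edgeR's test of sex, against 0.188% of all genes (31 of 16507), and 3 members had an unadjusted p under 0.05, against 8.08%. These 3 were neighbours in block B and were higher in females. Each sex has its own deposited table, so sex and table cannot be told apart. *Vmn2r117* measured 8.15 to 19.3 CPM in male and 17.3 to 23.2 in female libraries, and the female value was the higher in 8 of 8 lines. The log2 difference was 0.65 ± 0.134 with an edgeR adjusted p of 0.0727, and an exact sign-flip permutation test over lines gave p = 0.00781, the smallest that 8 lines allow. With line as a replicate block, the edgeR adjusted p was 0.0415, which passed the threshold. Over lines, 11 of the 45 members had a sign-flip permutation p under 0.05, 8 higher in females and 3 in males. The sign-flip test was not run over all genes, so this count has no background share and is not read as particular to the members. The smallest p also belonged to *Vmn2r100* and *Vmn1r236* of block A. *Vmn2r100* was higher in females in 8 of 8 lines (mean log2 difference 0.25), and *Vmn1r236* in males in 8 of 8 (female minus male -0.42), with edgeR adjusted p of 0.168 and 0.0778 under the block. *Vmn2r116*, the ESP1 receptor, differed by 0.32 ± 0.0974, with the female library higher in 7 of 8 lines and an edgeR adjusted p of 0.290. *Vmn2r115* differed by 0.29 ± 0.134, also in 7 of 8 lines, with an edgeR adjusted p of 0.612.

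The difference between HR and Control lines was also compared between the sexes, as an interaction term. No member passed the threshold, as in 0% of all genes, and no member had an unadjusted edgeR p under 0.05, against 0.394% of all genes. This model also held no term for line, so differences between lines entered its error and the test was weak. The SE of the term was 1.56 on the log2 scale for *Vmn2r110*. An absence of interaction therefore cannot be read from it. The smallest p were those of *Vmn1r233* (-0.18 ± 0.190 on the log2 scale), *Vmn2r111* (-0.16 ± 0.189) and *Vmn1r229* (-0.28 ± 0.332), with unadjusted p of 0.372, 0.410 and 0.415 in edgeR's test.

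Neighbour profiles were compared as correlations of log2 CPM over the 8 line means. The 41 adjacent pairs of members had a median r of 0.180, with 10 above 0.5 and 17 below 0. This was near the median of all 990 pairs of members, 0.154, and of members with receptors on other chromosomes, 0.199. Adjacent receptor pairs outside the set had a median of 0.512 (211 pairs), and adjacent genes that are no receptors 0.129 (14292 pairs). Adjacent *Vmn1r* pairs stood at 0.432 (11 pairs), adjacent *Vmn2r* pairs at 0.0728 (25 pairs) and the 5 mixed pairs at -0.245. Pairs within a block had a median of 0.292 at less than 0.1 Mb, 0.230 from 0.1 to 0.5 Mb and 0.197 from 2 to 4 Mb. These values depend on single lines, since the median of adjacent pairs was 0.346 without Control 4, 0.0868 without Control 2 and 0.0705 without Control 5. All points share the same 16 libraries, and genes are not independent replicates.

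**Figure D5:**
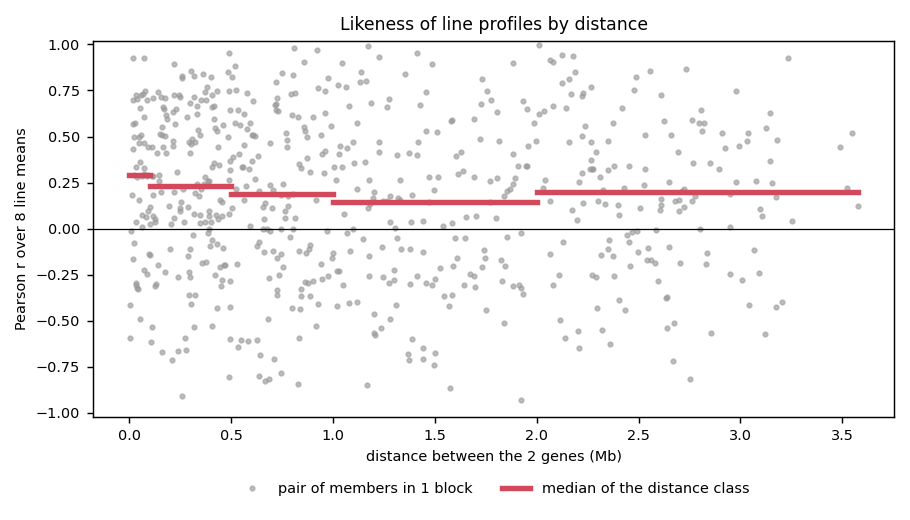
Pearson r over 8 line means for each pair of members within a block (grey points) against the distance between the 2 genes in Mb, with red bars for the median of each distance class. The medians fall from 0.292 at less than 0.1 Mb to 0.146 between 1 and 2 Mb, within a scatter of points that covers both signs at every distance.

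Of the 6 adjacent pairs with the highest or the lowest r, none passed after Benjamini-Hochberg adjustment over the 6, for r or for rho (adjusted permutation p of rho 0.131 to 0.327). *Vmn2r94* and *Vmn2r93*, 20.3 kb apart, had r = 0.929 (permutation p = 0.0694, adjusted 0.119) and rho = 0.405 (permutation p = 0.327), and r was 0.0448 without Controls 4 and 5, so the relation rests on those lines. *Vmn2r106* and *Vmn2r107* had r = 0.728 (permutation p = 0.0102, adjusted 0.0612) and rho = 0.738 (permutation p = 0.0458), and r was 0.214 without Control 4 and HR 3. *Vmn2r105* and *Vmn2r106* had r = 0.726 (permutation p = 0.0490, adjusted 0.119) and rho = 0.810 (permutation p = 0.0218), and r was 0.615 without Control 2 and HR 8. On the negative side, *Vmn2r98* and *Vmn2r99* had r = -0.66 (permutation p = 0.0794, adjusted 0.119) and rho = -0.643 (permutation p = 0.0962), with r = -0.714 without Control 4 and HR 7. *Vmn2r109* and *Vmn2r110*, whose transcripts lie 3.00 kb apart, had r = -0.595 (permutation p = 0.128, adjusted 0.154) and rho = -0.429 (permutation p = 0.299), with r = 0.0253 without Controls 1 and 5. *Vmn2r95* and *Vmn2r96* had r = -0.534 (permutation p = 0.158, adjusted 0.158) and rho = -0.476 (permutation p = 0.243), with r = -0.230 without Control 1 and HR 7.

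Of the 7 block B members, 6 had near-identical 5′ ends beside unlike levels. RefSeq windows on GRCm38.p6, from 250 bases before to 50 after the start of the gene, were matched for 43 of the 45 members, without *Vmn1r229* and *Vmn1r230*. The RefSeq start of all 7 block B genes is the start codon of GENCODE and lies 102 to 236 bases inside the longer GENCODE gene, so most of these windows is transcribed and only 14 to 148 bases lie upstream. Over all 43, RefSeq starts lay up to 14440 bases inside the GENCODE gene, and at least 1778 for every matched *Vmn1r* member, so the windows were not used as promoters. The window of *Vmn2r113* was 83.2 to 84.9% identical to those of the other 6 block B genes. Leaving out *Vmn2r113*, the 15 pairs among the other 6 block B windows were 96.0 to 99.3% identical, while the median over all *Vmn2r* pairs was 56.5%. Their line profiles had an r from -0.83 to 0.74, with a median of -0.08.

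Shown are the first 50 coding bases of *Vmn2r114*, low in Controls 1 and 5, and of 3 relatives, with capitals where a base differs from *Vmn2r114*. They lie at chr17:23312264-23312313 (minus strand) for *Vmn2r114*, chr17:23343977-23344026 (plus strand) for *Vmn2r115*, chr17:22601148-22601197 (plus strand) for *Vmn2r112* and chr17:23479548-23479597 (minus strand) for *Vmn2r117*.
Vmn2r114: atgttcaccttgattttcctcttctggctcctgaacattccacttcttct
Vmn2r115: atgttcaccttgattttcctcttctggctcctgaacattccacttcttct
Vmn2r112: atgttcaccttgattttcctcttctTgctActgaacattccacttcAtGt
Vmn2r117: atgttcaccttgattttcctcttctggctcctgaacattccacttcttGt

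*Vmn2r115* differed from *Vmn2r114* at 0 of these 50 bases and at 2 of the 300 of the window, and it was not low in the same lines. It measured 85.9 and 90.1 CPM in Control 1 and 52.8 and 94.6 in Control 5, against 1.73 to 2.73 for *Vmn2r114* in those libraries. *Vmn2r112*, with 9 bases of the window different, was highest in the lines where *Vmn2r114* was lowest, at 70.5 and 58.1 CPM in Control 1 and 52.8 and 69.2 in Control 5, against 25.3 to 49.2 elsewhere. *Vmn2r117*, with 12 bases different, had the line profile most like that of *Vmn2r114*, with r = 0.74, the highest of the 15 pairs. Its line means ran only from 14.3 to 21.0 CPM, lowest in Control 5. *Vmn2r117* also had the smallest p of the members in the test of sex.

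Shared sequence limits how far some members can be told apart. The share of a member's 75-base words found in no other gene had a median of 98.4%, and it was over 90% for 38 members and 100% for 12. *Vmn2r91* was at 49.98%, with 49.3% of its words also in *Vmn2r92*, so its level is uncertain. *Vmn2r92* was at 76.7%, *Vmn2r113* at 79.9%, *Vmn2r117* at 84.7%, *Vmn2r110* at 86.6% and *Vmn2r109* at 87.97%. *Vmn2r93*, *Vmn2r100* and *Vmn2r102*, with differences of many-fold among Control lines, were at 99.6, 99.6 and 98.9%. Exons of *Vmn2r110* overlap *Gm5145* on the other strand over 9.12% of their bases. Those of *Vmn2r107* overlap *AC154379.1* over 5.92%, and those of *Vmn1r231* overlap *Gm49761* over 16.9%, both on the same strand. How such reads were assigned is not given in the sources used here.

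Other genes of the pathway showed no call between linetypes. Of 30 signalling and co-receptor genes, 29 were tested, 0 passed edgeR's test of HR against Control and 2 had an unadjusted p under 0.05, both of the H2-Mv class. The lower of them, *H2-M1*, had a log2 fold change of -0.82 ± 0.349. Their log2 fold changes had a median of 0.02 and ran from -0.82 to 0.19, and 11 differed among Control and 13 among HR lines. The *Fpr* genes, which lie within block A, were tested for 5 of 6, with 0 called between linetypes, 3 among Control lines and 0 among HR lines.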

How the data were processed

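RNA of 16 VNO pools was depleted of ribosomal RNA and sequenced as 75-nucleotide single-end reads. Per the submitters' notes and methods, the authors aligned reads to GRCm38 with STAR 2.6.1d without mismatch or multiple locations and used Cufflinks. The deposited counts are reads per gene without normalization, and the deposited RPKM were scaled by the authors in 1 table per sex. The counting tool, strand setting and annotation are not given in the sources used here. In the male table, 34.94 to 37.32% of entries' reads were in 4 summary rows, which were left out, as were 4 entries of repeated names. Depth was 15998552 to 70875276 counts a library, and precision is limited more by the 4 lines of a linetype.

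Counts were tested in R 4.3.3 with edgeR 4.0.16 (TMM, filterByExpr at a minimum count of 10, quasi-likelihood test, Benjamini-Hochberg adjustment, threshold 0.05). DESeq2 1.42.0, limma 3.58.1, line sums, each line left out, each sex alone and log2(RPKM + 1) with a filter at a mean of 0.1 were alternatives. CPM in the text have no prior count, and log2 line means used a prior count of 2. Fits were tested on simulated data. Apart from the changes put in, the simulated lines did not differ. The simulation therefore does not address counting the 2 libraries of a line as independent. Positions come from GENCODE M21. The male and the female pool of a line come from the same line, and their deviations from group means correlated at 0.505 to 0.985 over members, so line was a block in the alternatives to the tests of sex and interaction. It is nested in linetype and entered that test as a random block (correlation 0.491).

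Members, gene lists and tests were chosen with earlier results of these data known. Members named with values were those on the study's list, the 6 with the smallest p in the tests of linetype, Control lines and HR lines, the 3 with the smallest p for sex and interaction, the 3 highest and 3 lowest in RPKM per family, and the 3 adjacent pairs at either end of r. Members of the widest-gap patterns, *Vmn2r94*, *Vmn2r104* and *Vmn2r108* among them, and *Vmn2r112* and *Vmn2r92* were named after their values were seen.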

Additional observations from a re-analysis of the deposited data

Results flagged for a closer look

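In 90 groups of 4 line means (45 members in 2 linetypes), 1 line lay far from the other 3 in 9 groups, by a gap over 0.829 of the whole range of the group. For independent normal values about 5% of groups would pass. These groups share the same lines, and the share over all genes is not given here. The count is therefore not read as particular to the members. Among Control lines the far line was Control 4 for *Vmn2r93* (0.898 of the range, a gap of 4.78 on the log2 scale) and *Vmn2r107* (0.926, 4.29), both low, and Control 1 for *Vmn2r95* (0.873, 0.51). Among HR lines it was HR 3 for *Vmn2r92* (0.844, 1.57). HR 6 was the far line for *Vmn1r227* (0.928, 0.52), *Vmn1r235* (0.886, 0.87) and *Vmn2r116* (0.876, 0.23), HR 7 for *Vmn2r111* (0.926, 0.21) and HR 8 for *Vmn2r118* (0.865, 0.31). The causes were not tested.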

How the results depend on the processing

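Over the alternatives tried, the number of members called between linetypes was 0 with line sums, with limma-voom and line as a block, and in either sex alone, 2 with DESeq2, and 0 to 4 with a line left out (4 without Control 2: *Vmn1r236*, *Vmn2r99*, *Vmn2r102* and *Vmn2r110*). The matching shares of all genes are not given here, for these or the later counts of members called. Such counts are therefore not set against a background. Between linetypes, DESeq2 gave no p for *Vmn2r102* and *Vmn2r110*. Members called among Control lines numbered 26 to 33 by other settings and 21 to 30 with a line left out. Among HR lines the count was 13 without the term for sex, 13 to 27 over the other settings and 7 to 21 with a line left out. For sex, DESeq2, limma on log2(RPKM + 1) and line as a replicate block each called 1 member, *Vmn2r117*, and 0 to 0 were called with a line left out. The interaction gave 0 in each alternative, the replicate block included, which changed no other call. Line means of HR and Control did not overlap for 0 members in female libraries alone. The median r of adjacent members was 0.112 on log2(RPKM + 1), 0.272 in males alone, and 0.0705 to 0.346 with a line left out. The larger Control spread held in 28 to 36 members with a line left out, an alternative chosen after seeing the data. Over all genes that share ran from 42.3 to 66.2%. The ratio of summed levels was 1.05 by RPKM. Of the 11 members followed between linetypes, 0 changed the sign of their log2 fold change, but over all 45 members 19 did with a line left out. The 11 were chosen by a small p or from the study's list, both drawn from these samples. Their steady sign therefore follows in part from the choice and is no separate support. The causes were not tested. With 4 lines a linetype, an exact permutation p cannot go below 0.0286.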

Other observations

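Line profiles were set beside transcript likeness, taken as the share of 25-base words of the member with fewer words that the other holds. Of pairs within a family, 29 shared 10 to 50% and had a median r over the 8 line means of 0.0575, against 0.160 for 526 pairs that shared under 10%. The closest pair was *Vmn2r91* and *Vmn2r92*, with 75.8%. *Vmn2r109* and *Vmn2r110* shared 28.9%, and in Controls 1 and 5 *Vmn2r109* was high and *Vmn2r110* low. Of 990 pairs of members, 20 had an r over 0.9 across the 8 line means, and 1 of these was an adjacent pair. *Vmn2r93*, *Vmn2r100* and *Vmn2r107*, all low in Control 4, are separated by members with other profiles.

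Of the *Fpr* genes within block A, Fpr3, a formyl peptide receptor-like gene, measured 5.30 CPM on average in Control and 14.8 in HR lines, and *Fpr*-rs4 0.581 and 2.52 CPM. Their log2 fold changes were 1.5 and 2.15, and neither passed edgeR's test after Benjamini-Hochberg adjustment.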
